A study of Mus musculus with 7 samples.

Results

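The 4 RNA sequencing libraries of embryonic mouse cortex were examined by themselves. They are the 4 of 7 libraries in the series that are labelled E14.5 (embryonic day 14.5), chosen by that label alone, and the adult libraries were not used here. Every gene of the deposited tables was considered, 53801 in all, of which 31354 had at least 1 count and 22447 were at 0 in all 4 libraries. All 4 libraries came from C57BL/6J mice of the genotype Nbs1 fl/+; Nestin-Cre tg, so each carries 1 floxed allele of Nbs1, an older name of Nbn, and a Cre recombinase driven by the Nestin promoter, which is active in neural progenitors. None of them lacks the floxed allele or the Cre, so what these alleles do cannot be told apart from what the stage and tissue do. Replicate 1 is male and from the earlier of 2 plug dates, replicate 4 is male and from the later date, and replicates 2 and 3 are female and from the later date. By the labels' dates, brains were isolated 12 days after the plug in each case, fewer than the stated 14.5, and the labelled stage is kept here. The tissue is labelled cortical plate. Part of it was stored in a stabilising solution before RNA isolation. Nothing in the labels says in so many words that each library came from its own embryo, so the p-values reflect only how these samples differ, which may in part be technical.

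In the mouse cortex at this stage, radial glia divide along the ventricle and give rise to intermediate progenitors and to neurons, which migrate outward and settle in layers, the deep layers first. The cortical wall adjoins other tissues: the ventral telencephalon, where Dlx transcription factors specify GABAergic neurons that migrate into the cortex, the cortical hem, the choroid plexus, which secretes cerebrospinal fluid, and the vascularised meninges outside. Blood in the embryo at this time carries both embryonic and adult forms of globin, since red cells from the yolk sac and from the fetal liver circulate together.

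The libraries held 32533065 to 43197226 counts, and RPM below stands for reads per 1000000 counted reads. Spearman correlations of scaled log RPM between pairs of libraries were 0.992 to 0.994, and chi-square per degree of freedom between pairs was 8.69 to 14.4, far above the value of about 1 that counting alone would give, so no pair looked like a library deposited again. The sex labels matched the sex chromosome genes in all 4 libraries. Xist, the RNA that silences one X chromosome, had 2.96 and 1.69 RPM in male libraries, against 1070.5 and 1041 RPM in female libraries. Eif2s3y, a Y-linked gene, had 83.4 and 81.9 RPM in male libraries, against 0.0922 and 0 RPM in female libraries. Nbn, the gene that the floxed allele affects, had 7.03, 8.28, 7.13 and 7.96 RPKM in replicates 1 to 4 and was listed at rank 7668 of all genes by mean. RPKM, RPM per kilobase of exon, allows levels to be compared between genes. The count covers the whole gene, and with no library lacking the allele it does not check the deletion. The partners of the Nbn protein in the MRE11 complex were at similar levels, Mre11a at 6.68 ± 0.531 and Rad50 at 5.53 ± 0.374 RPKM (mean ± SD, n = 4), and the kinase gene Atm was at 3.23 ± 0.368.

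The most abundant transcripts belonged to 3 kinds. Among the 20 genes with the highest mean RPKM, 9 were genes of the mitochondrial genome, 6 were annotated as pseudogenes and 5 were nuclear protein-coding genes. mt-Co1, a subunit of cytochrome c oxidase, had the highest level of all, with 3794, 3654, 3655 and 3789 RPKM in replicates 1 to 4. It was first in each of the 4 libraries. The 5 nuclear coding genes encode a translation factor, Eef1a1 (2652 ± 30.4 RPKM, SD, n = 4), an actin-sequestering peptide, Tmsb4x (1283 ± 65.3), the small acidic nuclear protein prothymosin, Ptma (1112 ± 48.3), and 2 tubulins, Tuba1a (1039 ± 104) and Tubb5 (1030.4 ± 31.2). Tuba1a is the main alpha-tubulin of newborn neurons, and its levels were 1099.9, 961, 1153 and 941 RPKM in replicates 1 to 4, higher in replicates 1 and 3 than in replicates 2 and 4. Stmn1, a microtubule-destabilising protein, and Hsp90ab1, the constitutive cytosolic chaperone, followed closely with 916 ± 51.98 and 897 ± 18.4 RPKM.

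**Figure D1:**
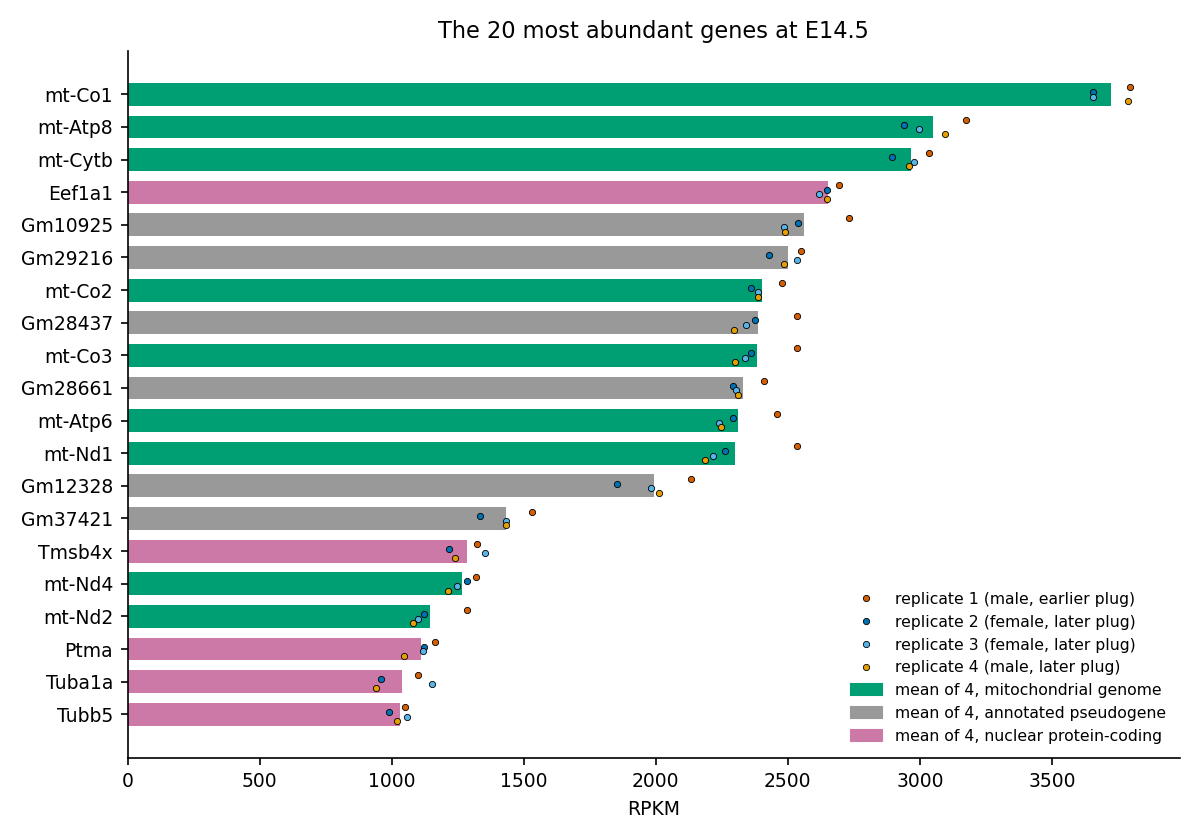
RPKM of the 20 most abundant genes, with the most abundant at the top. Bars give the mean of the 4 libraries and points give each library, coloured as in the legend. Genes of the mitochondrial genome and pseudogenes that resemble them fill 13 of the 20 places, and mt-Co1 is highest with a mean of 3723 RPKM.

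All 6 pseudogenes in that group resemble an abundant transcript, so their levels are uncertain. Stretches of 90 bases are shown here from mt-Co1 and from 2 of its pseudogenes, in the sense orientation, because they show why reads of the parent and of the copy are hard to separate. The sequences are from GENCODE M21 transcripts on GRCm38, written 5′ to 3′, and capitals mark bases that differ from mt-Co1.
mt-Co1: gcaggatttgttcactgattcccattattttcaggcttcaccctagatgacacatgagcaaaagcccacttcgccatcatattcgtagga
Gm29216: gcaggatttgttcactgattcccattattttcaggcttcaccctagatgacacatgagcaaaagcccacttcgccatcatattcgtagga
Gm13340: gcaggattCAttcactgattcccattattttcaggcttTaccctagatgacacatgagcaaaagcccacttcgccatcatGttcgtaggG
The stretch lies in the coding sequence of mt-Co1 and was chosen as the one in which Gm13340 differed at most bases. Gm29216, on chromosome 1 (24615706 to 24616197), had 0 differences from mt-Co1 in this stretch, and Gm13340, on chromosome 2 (22588103 to 22589647), had 5.

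In the pairs given here, counts of the pseudogene tracked those of the parent at a nearly fixed ratio in every library. Pseudogenes were not all steady in level: Gm8730 had 161, 225, 232 and 152 RPM in replicates 1 to 4. Gm28437, which was 100% identical to mt-Co3 over 783 bases, had 0.998, 1.01, 1.001 and 0.998 times the counts of mt-Co3 in replicates 1 to 4. Gm10925 had 1.11, 1.10, 1.10 and 1.10 times the counts of mt-Atp6, to which it was identical over 678 bases. Gm28661 was identical to mt-Co2 over 681 bases and had 0.967, 0.968, 0.961 and 0.964 times its counts. These 3 ratios varied little between libraries, whereas the ratio itself differed from gene to gene. Gm29216 had 0.214, 0.212, 0.221 and 0.209 times the counts of mt-Co1, and Gm3226 had 0.809, 0.790, 0.806 and 0.797 times those of Tuba1b. Count ratios are not scaled to length, and Gm29216 has 492 bases where mt-Co1 has 1545. For identical stretches, reads of the copy and of the parent cannot be told apart in these tables. The remaining pair, Gm12328 and Gm37421, were short pseudogenes whose closest coding transcript was Ubb, which encodes polyubiquitin, at 96.5% and 94.6% identity.

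Nuclear protein-coding genes took 91.6 ± 0.145% of counts (SD, n = 4), and this share differed little between libraries (91.5, 91.6, 91.7 and 91.8% in replicates 1 to 4). The 13 mitochondrial coding genes took 2.22 ± 0.0572%. Annotated pseudogenes took 4.98 ± 0.109% together, and 689 of them that were at least 98% identical to a coding transcript over at least 90% of their length held 3.07 ± 0.0658%. With the near-identical pseudogenes added, the mitochondrial share was 3.02 ± 0.0875% in place of 2.26 ± 0.0624%. Long non-coding RNAs took 1.04 ± 0.0506%. By summed RPKM in place of counts, nuclear coding genes held 68.6% and processed pseudogenes 18.1%.

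Named functional classes were small and steady, with tubulin and globin varying most among them. The 86 ribosomal protein genes took 2.74 ± 0.0559% of counts, the 82 histone genes 0.359 ± 0.0105% and the 15 heat shock protein 90 and 70 genes 0.597 ± 0.00874%. The 15 tubulin genes took 1.22, 1.09, 1.25 and 1.13% in replicates 1 to 4, more in replicates 1 and 3 than in replicates 2 and 4. The 8 globin genes took 0.237, 0.197, 0.170 and 0.195%, most in replicate 1 and least in replicate 3. The distribution was flat overall: the 20 genes with most counts held 5.25 ± 0.0883% of them, and 1451 ± 14.5 genes were needed to reach 50%. In all 4 libraries, 14419 genes reached 1 RPKM and 418 reached 100, of which 311 were protein-coding.

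Several long non-coding RNAs were abundant. Gm10076 had 380.5 ± 9.82 RPKM (SD, n = 4), Miat, a nuclear RNA of neural progenitors and neurons, had 86.4 ± 11.1, and the microRNA host transcript Mir124a-1hg had 54.8 ± 3.29. These 3 were chosen after their values were seen. Only annotated pseudogenes were matched to coding transcripts, so whether Gm10076 shares reads with another gene was not tested. H19, an imprinted RNA, had 102, 60.3, 52.8 and 70.6 RPKM in replicates 1 to 4, highest in replicate 1.

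Markers of cortical progenitors were present at high levels, and their sums were even between libraries. All 20 radial glia genes reached 1 RPKM in all 4 libraries, and their sum was 1322, 1269, 1297 and 1294 RPKM in replicates 1 to 4, the steadiest of the 23 cell type lists (highest over lowest library 1.04). Fabp7, which binds fatty acids in radial glia, had 375 ± 27.1 RPKM (SD, n = 4), the intermediate filament gene Vim 208 ± 3.50, Dbi, an acyl-CoA binding protein, 137 ± 4.61 and Lhx2, a transcription factor of cortical identity, 107 ± 6.17. The lowest of the list was Hopx, at 6.75 ± 0.857 RPKM. All 11 intermediate progenitor genes were detected as well, with a sum of 545, 571, 543 and 551 RPKM. Neurog2, a proneural transcription factor, had 105, 114, 106 and 102 RPKM in replicates 1 to 4, and Eomes, which marks intermediate progenitors, had 77.004, 84.7, 81.9 and 85.9. Both stayed within a narrow range in the 4 libraries.

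Markers of newborn neurons summed to more than those of radial glia, and markers of layers and of maturing neurons to less. The 14 genes of newborn and migrating neurons summed to 1613, 1490.0, 1720.5 and 1518 RPKM in replicates 1 to 4, most in replicate 3. Tubb3, the neuronal beta-tubulin, made up the largest share, with 651, 541, 674 and 564 RPKM, and Neurod6, a transcription factor of pyramidal neurons, had 299, 310.2, 333 and 309.9. Replicate 3 was highest in both. Among deep-layer genes, Tbr1, which specifies layer VI neurons, had 65.8 ± 2.73 RPKM (SD, n = 4), Fezf2, which specifies subcerebral projection neurons, 56.2 ± 3.45 and Bcl11b, a factor acting with it, 35.9 ± 2.36. Foxp2 was the lowest of the 9, at 1.40 ± 0.192. Upper-layer genes were lower, with Pou3f3 at 49.6 ± 1.74 and Inhba at 0.337 ± 0.0754 RPKM. The sums of the lists were 208 ± 8.58 for the deep and 140.5 ± 6.59 for the upper layers, but Pou3f3, Lmo4 and Pou3f2 are also used by progenitors or other neurons. Of 11 genes of maturing neurons 9 were detected in all libraries, such as the AMPA receptor subunit Gria2 (21.6 ± 1.92 RPKM), the vesicular glutamate transporters Slc17a7 (18.5 ± 2.23) and Slc17a6 (17.8 ± 0.599), while Grin1, an NMDA receptor subunit, was at 0.656 ± 0.200.

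Cell types of the cortical margin were measurable at lower levels. Reln, secreted by Cajal-Retzius cells, had 11.6, 10.2, 11.3 and 10.7 RPKM in replicates 1 to 4, and Trp73, a transcription factor of these cells, had 7.81, 7.15, 7.06 and 6.91. Among the subplate genes, Nxph4 led with 25.4 ± 1.39 RPKM (SD, n = 4), and Cplx3, a later subplate marker, was near 0 at 0.0149 ± 0.0132. For the cortical hem, Rspo3, a Wnt agonist, had 11.1 ± 0.953 and Wnt8b 5.08 ± 1.004 RPKM, while Gdf7 was at 0.0178 ± 0.0134. In whole tissue, fewer cells of a type and less RNA per cell cannot be told apart, and this holds for every list here.

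Markers of non-neural cells were present in every library. Erythroid genes had the highest sum of all 23 cell type lists, 3276, 2716, 2339 and 2689.8 RPKM in replicates 1 to 4, led by Hba-a2 (742 ± 99.9 RPKM, SD, n = 4) and Hbb-bs (630.3 ± 69.2), whose near-identical copies Hba-a1 and Hbb-bt may share reads with them. The embryonic globin Hbb-y had 503, 430.3, 258 and 406 RPKM, and embryonic forms made up 32.3, 32.1, 23.8 and 31.4% of the RPKM of beta-like globins, the least in replicate 3. Ttr, the thyroid hormone carrier made by the choroid plexus, was the 54th most abundant of the genes with a mean of at least 100 counts. It had 559, 617, 537 and 162 RPKM in replicates 1 to 4. Replicate 4 stood well below the other 3. Endothelial genes summed to 138 ± 15.3 RPKM, with the glucose transporter Slc2a1 at 33.9 ± 1.25 and the tight junction gene Cldn5 at 33.6 ± 7.69. Meningeal genes summed to 124 ± 30.3 (Col3a1, a fibrillar collagen, 23.1 ± 4.82) and pericyte genes to 60.3 ± 10.7 RPKM (Vtn, encoding vitronectin, 19.9 ± 5.26). Microglial genes were low, with a sum of 43.4 ± 8.51 RPKM over 17 genes, the complement gene C1qb at 5.80 ± 1.37 and the integrin gene Itgam at 0.0344 ± 0.00534.

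Markers that define some other cell types were near 0. Of 7 myelin genes, Opalin was at 0.00401 ± 0.00802 and Mag, an adhesion protein of myelin, at 0.0562 ± 0.0186 RPKM (SD, n = 4). The other way, 4 of the 7 reached 1 RPKM in all 4 libraries, at low levels, among them Cnp at 3.49 ± 0.577, Mog at 2.33 ± 0.312 and Mbp at 2.18 ± 0.139 RPKM. Oligodendrocyte precursor genes summed to 3.59 ± 0.855 RPKM, most of it Pdgfra (2.62 ± 0.490), which meningeal and other mesenchymal cells also express, and Nkx2-2 was at 0.00968 ± 0.00732. The astrocyte filament gene Gfap was at 0.114 ± 0.00493 RPKM and the water channel gene Aqp4 at 0.258 ± 0.0318, whereas Aldoc (69.96 ± 4.43) and Fgfr3 (33.3 ± 4.55) of the same list are also genes of radial glia. The 8 astrocyte genes summed to 122 ± 6.67 RPKM, and 4 of them reached 1 RPKM in all 4 libraries, so the list as a whole was not near 0. Of 18 genes that mark brain regions outside the telencephalon, 2 reached 1 RPKM in all libraries, Lhx9 (5.38 ± 0.423) and Tcf7l2 (1.41 ± 0.120), and 2, the hindbrain genes Hoxa2 and Hoxb2, had no counts at all. Of 14 genes of skin, muscle and skeleton, 3 reached that level, Col2a1 (12.4 ± 1.17), Acta1 (3.32 ± 0.702) and Krt18 (2.39 ± 0.920), and the epidermal keratin Krt5 had no counts, where a count of 0 allows up to 3 counts in a library. The markers were those of developing cortex together with blood, vessels, meninges and choroid plexus. They were not those of a cortical plate alone, since radial glia and intermediate progenitors, which lie beneath the plate, were well represented.

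**Figure D2:**
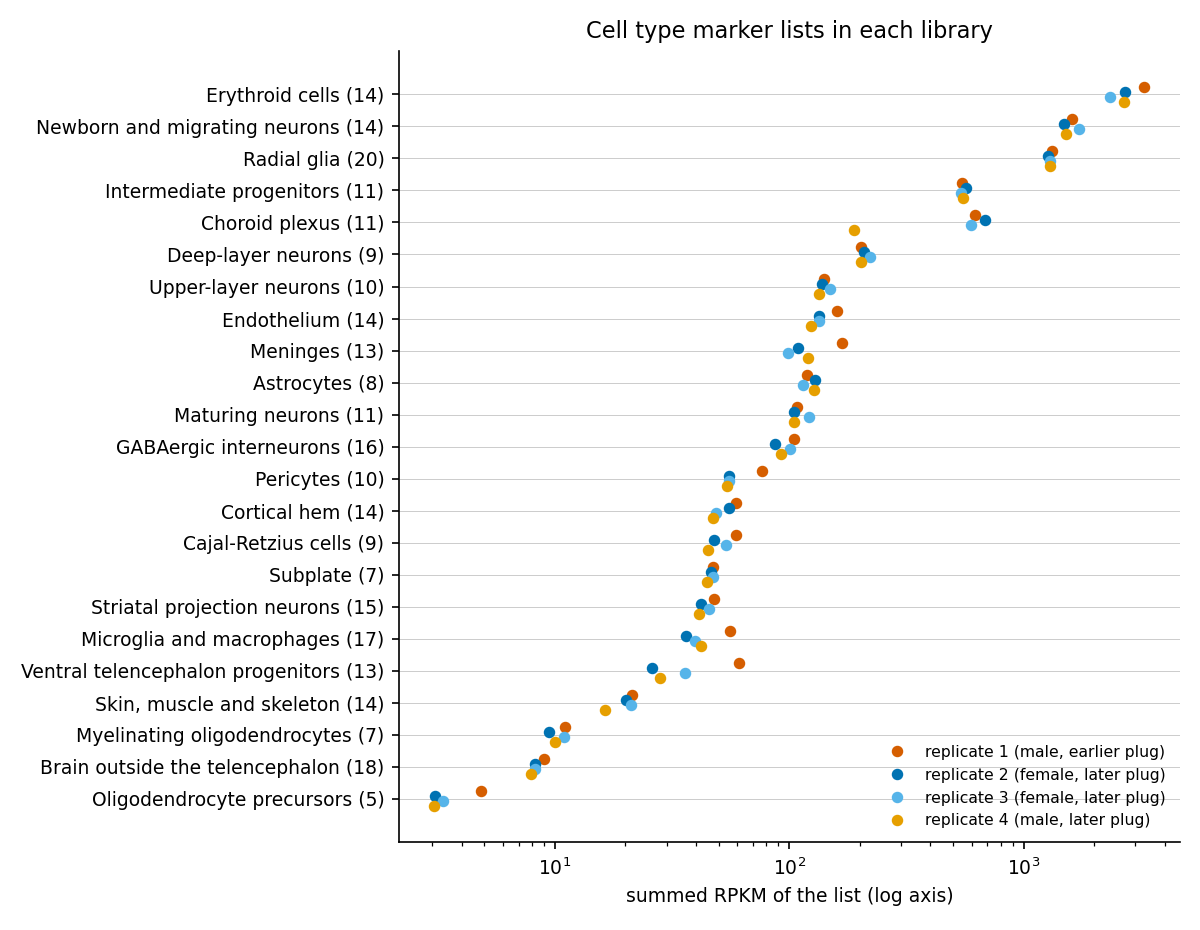
Summed RPKM of each of the 23 cell type lists on a log axis, ordered by mean, with the number of genes in brackets. Each point is 1 library, coloured as in the legend. Replicate 4 sits apart for the choroid plexus (189 RPKM, against 596 to 687 in the other 3), and replicate 1 is highest for ventral telencephalon progenitors (61.2 RPKM).

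Genes of cell division and growth were expressed throughout. All 13 mitosis genes and all 14 DNA replication genes reached 1 RPKM in all libraries, with Top2a, the mitotic topoisomerase, at 58.7 ± 5.94 RPKM, Cdc20, the activator of the anaphase-promoting complex, at 60.6 ± 2.85 and Pcna, the replication clamp, at 104 ± 3.83 (SD, n = 4). The imprinted genes were all detected, led by Nnat, a membrane proteolipid of neural tissue, at 608 ± 73.95 RPKM. Stress genes were uneven in level: the inducible chaperone Hspa1a was at 0.216 ± 0.0298 RPKM and the immediate early gene Fosb at 0.0294 ± 0.00708, while Jun was at 33.6 ± 0.388. Of 14 targets of p53, Bax, an effector of apoptosis, was highest at 29.7 ± 1.87, and Fas, a death receptor, lowest at 0.0740 ± 0.0312. Of the genes whose use shifts with progenitor age, the nuclear factor I genes Nfix (92.7 ± 8.33) and Nfib (78.7 ± 6.46) were well above Hmga2 (3.74 ± 0.482) and Lin28b (0.755 ± 0.160), which mark earlier progenitors, and Lin28a was at 0.00160 ± 0.00320 RPKM. The early genes were not all low: the 8 of that list summed to 43.2 ± 2.97 RPKM, mostly from members not named here. Of these 8, 4 reached 1 RPKM in all libraries. The 4 genes of the later list summed to 213 ± 15.8 RPKM.

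Of 20884 genes tested, 9400 (45.0%) varied between the 4 libraries beyond counting noise (edgeR likelihood-ratio test with Poisson counts, Benjamini-Hochberg adjusted p under 0.05). The test compares these libraries, not conditions, so any source of difference counts. A call depended on depth. Among genes with a mean under 1 RPM 15.2% were called, among those at 1 to 10 RPM 32.4%, at 10 to 100 RPM 56.6% and at 100 RPM or more 84.6%. The estimated size of the variation fell with level. It is given as the coefficient of variation beyond counting noise, the SD over the mean of the scaled RPM once the counting variance is taken off, and its median was 12.8% under 1 RPM, 8.15% at 1 to 10 RPM, 4.69% at 10 to 100 RPM and 4.39% at 100 RPM or more. It passed 25% in 1336 of 4259 genes under 1 RPM, in 693 of 5718 at 1 to 10 RPM, in 147 of 8304 at 10 to 100 RPM and in 10 of 2603 genes at 100 RPM or more. Under 1 RPM only 646 genes were called and the median counting error was 25.7%. Many of the 1336 values there are therefore not told apart from counting noise. Of the 2603 genes at 100 RPM or more, 89 had an estimate of 0 for the variation beyond counting noise. These are ties, and the order among them is not told apart from counting noise. The 5 with the smallest total coefficient of variation encode housekeeping proteins. They include Npc2, a lysosomal cholesterol carrier (175, 173, 171 and 171 RPM in replicates 1 to 4). The others are Snu13, a spliceosomal and snoRNA-binding protein, Ncoa4, the ferritin autophagy receptor, Pomp, a proteasome assembly factor, and Actr2, an ARP2/3 complex subunit.

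**Figure D3:**
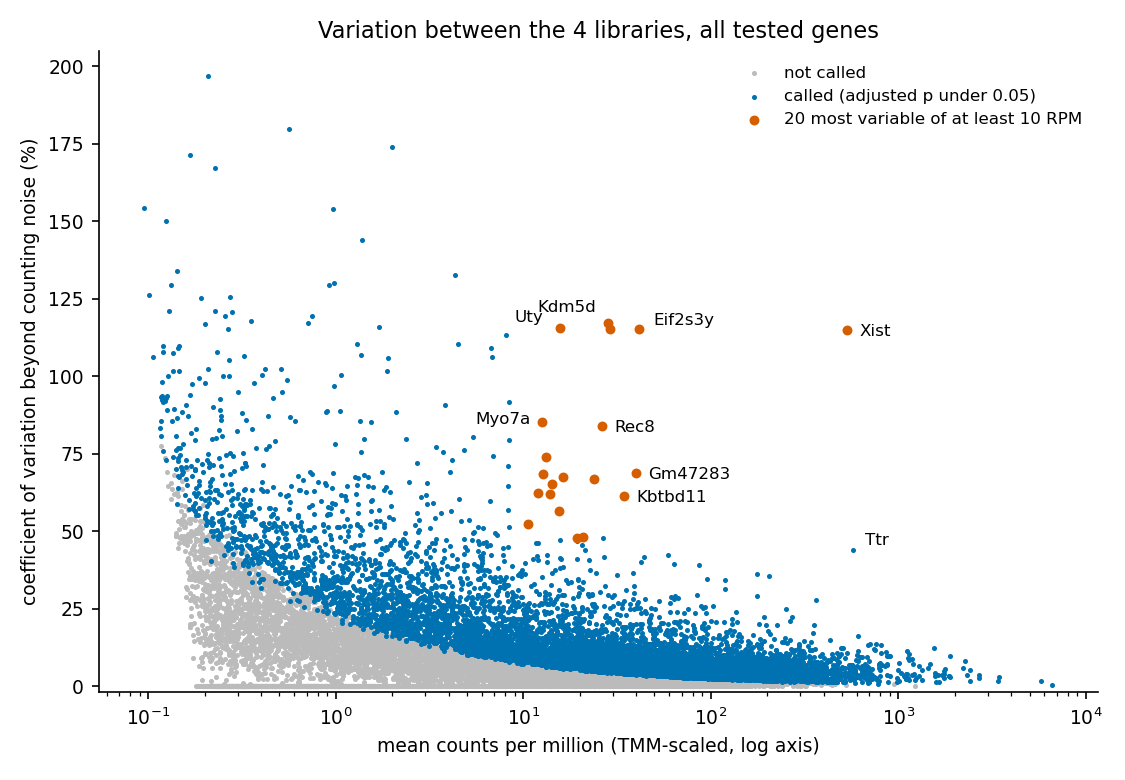
Coefficient of variation beyond counting noise (%) against mean scaled RPM on a log axis, for the 20884 tested genes. Blue genes were called and grey genes were not. The 20 most variable genes with a mean of at least 10 RPM are orange, of which 5 sit above 110%: Xist and the 4 Y-linked genes Kdm5d, Uty, Ddx3y and Eif2s3y.

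The 20 most variable genes with a mean of at least 10 RPM began with Xist and 4 Y-linked genes, which follow sex. Several others followed neither sex nor plug date. Myo7a, an unconventional myosin known from sensory hair cells (chromosome 7, 98051060 to 98119524), had 3.17, 21.98, 3.45 and 21.9 RPM in replicates 1 to 4, high in replicates 2 and 4 and low in replicates 1 and 3, a coefficient of variation of 85.2%. Its neighbours Capn5 and Acer3, chosen after their values were seen, had 21.3, 15.95, 19.2 and 19.5 and 4.37, 4.03, 3.86 and 4.38 RPM and did not share that pattern. Kbtbd11, a BTB-domain protein gene, had 20.7, 15.03, 61.1 and 40.3 RPM, highest in replicate 3 (61.5%). Aldh1l1, a folate enzyme that marks astrocytes and their precursors, had 14.9, 3.26, 15.1 and 9.26 RPM, lowest in replicate 2 (52.4%, or 24.5% without replicate 2).

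The other genes in that group had several patterns. Xlr3b, an X-linked gene whose paternal copy is silenced in mouse brain, had 25.2, 4.15, 9.67 and 12.1 RPM in replicates 1 to 4, most in replicate 1. Its relatives in the same cluster, chosen after their values were seen, Xlr3a with 14.5, 2.58, 4.84 and 5.72 and Xlr4a with 2.91, 0.154, 0.177 and 0.718 RPM, were also highest in replicate 1, but these genes resemble each other and may share reads. The processed pseudogenes Gm4383 and Gm46432 had 1.64, 24.96, 24.5 and 14.03 and 2.86, 38.1, 33.7 and 20.1 RPM, lowest in replicate 1, and without it their coefficients of variation were 28.7% and 30.2%, against 67.4% and 66.9% with it. Gm47283 and Gm21887, annotated in the pseudoautosomal region that X and Y share, had 31.2, 77.4, 38.5 and 12.2 and 10.6, 26.5, 12.8 and 3.01 RPM, highest in replicate 2 and lowest in replicate 4. Snhg11 (20.95, 4.98, 15.6 and 6.46 RPM) and Pcsk1n (25.4, 10.1, 15.6 and 4.79), which encodes an inhibitor of a neuropeptide-processing enzyme, were higher in replicates 1 and 3 than in replicates 2 and 4, as was Calb2, the calcium-binding protein calretinin (29.9, 12.6, 25.1 and 10.4).

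Genes of the ventral telencephalon varied together. All 11 tested members of the progenitor list were called, beside 45.0% of all tested genes and 56.6% of those at 10 to 100 RPM. Their median coefficient of variation was 58.7%, against 5.39% over all tested genes. All 9 members at 0.1 RPKM or more in each library were highest in replicate 1, where 34.0% of all such genes were. Dlx2, a homeobox factor of GABAergic lineages, had 9.69, 2.54, 4.93 and 2.79 RPKM in replicates 1 to 4, and Dlx1, its neighbour and partner, had 17.7, 6.76, 11.1 and 8.52. Dlx6os1, the antisense RNA of that family, had 5.43, 1.63, 3.14 and 1.86. Replicate 1 stood above the rest in all 3, and replicate 3 came next. Without replicate 1 the coefficient of variation of Dlx2 was 38.1%, against 65.2% with it, and that of Dlx6os1 was 36.4%, against 56.5%. The whole list summed to 61.2, 25.95, 35.95 and 28.1 RPKM, or 0.0463, 0.0205, 0.0277 and 0.0217 of the radial glia sum. Lhx8, a factor of the medial ganglionic eminence, had 0.333, 0, 0 and 0 RPKM, counts in replicate 1 and 0 in the other 3. Genes of striatal projection neurons summed to 47.95, 42.1, 45.3 and 41.1 RPKM, and of 11 ranked members 6 were highest in replicate 1, 3 in replicate 3 and 2 in replicate 4. Of 15 interneuron genes ranked, 7 were highest in replicate 1 and 6 in replicate 3. Among the interneuron genes at the highest levels, Sst, the somatostatin gene, had 20.7, 17.5, 23.2 and 23.6 RPKM and Cxcr4, the chemokine receptor that guides them, 19.98, 20.2, 19.005 and 17.1.

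Choroid plexus genes set replicate 4 apart. Of 11 tested members 10 were called, beside 45.0% of all tested genes and 56.6% of those at 10 to 100 RPM. All 10 members at 0.1 RPKM or more in each library were lowest in replicate 4, where 27.7% of all such genes were. The potassium channel subunit gene Kcne2 had 12.3, 15.1, 12.8 and 3.42 RPKM in replicates 1 to 4 and the chloride channel gene Clic6 had 12.3, 14.7, 11.7 and 4.59. Foxj1, the master regulator of motile cilia, had 9.34, 8.99, 8.13 and 4.84. In each of these, as in Ttr, replicate 4 was lowest, and the other 3 were nearer to each other than to it. The list summed to 622, 687, 596 and 189 RPKM, 3.64 times as much in the highest library as in the lowest. Klotho, Kl, was near 0 in all libraries (0.0657, 0.0264, 0.0632 and 0.0397 RPKM).

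Many blood, vessel, meningeal and immune genes were highest in replicate 1. Of the members at 0.1 RPKM or more in each library, replicate 1 was highest for 12 of 13 meningeal, 14 of 15 microglial, 12 of 14 endothelial, 8 of 11 erythroid and 6 of 10 pericyte genes, again beside 34.0% of all genes. Zic1, a zinc finger factor of meninges and of the medial and ventral forebrain, had 32.1, 18.4, 16.7 and 16.8 RPKM in replicates 1 to 4, and Lum, a proteoglycan of fibroblasts, had 17.5, 12.6, 9.72 and 13.6. Rgs5, a regulator of G protein signalling in pericytes, had 19.5, 11.3, 10.96 and 12.1. Csf1r, the growth factor receptor of microglia, had 5.06, 3.13, 3.22 and 4.09. Replicate 1 was highest in all 4, by the widest margin in Zic1. Of the imprinted genes, 12 of 15 were likewise highest in replicate 1, such as Mest, a hydrolase-like protein of mesoderm and brain, at 65.1, 46.3, 46.5 and 41.5 RPKM.

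**Figure D4:**
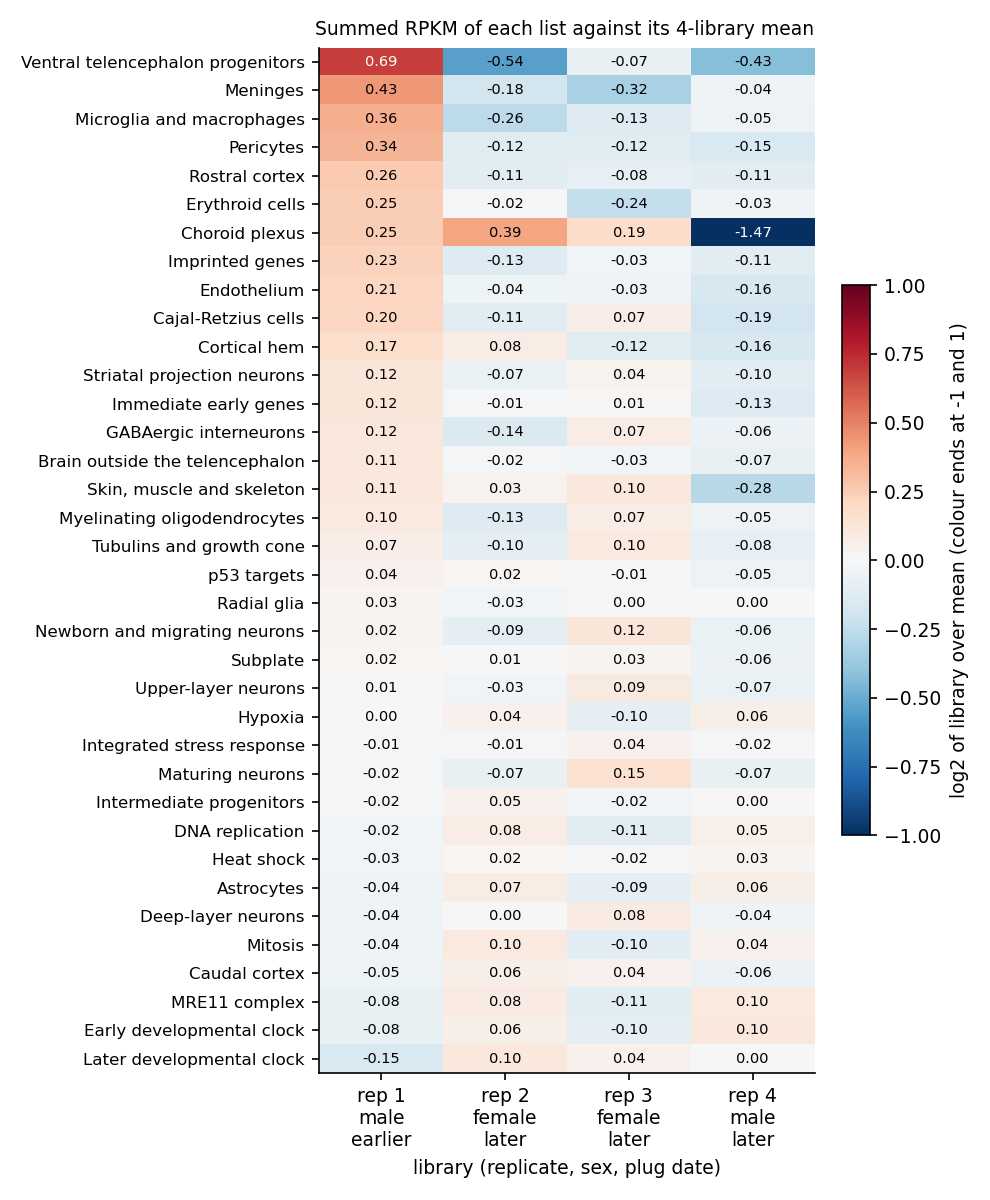
Log2 of the summed RPKM of each list in a library over its mean in the 4 libraries, for the 36 lists with a mean sum of at least 5 RPKM, leaving out the lists of sex chromosome genes. Columns are libraries and rows run from the list highest in replicate 1 to the list lowest there. The strongest value is that of choroid plexus genes in replicate 4, at -1.47, followed by ventral telencephalon progenitors in replicate 1, at 0.69.

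Many neuronal genes were highest, and many genes of dividing cells lowest, in replicate 3. Over all genes at 0.1 RPKM or more in each library, 21.2% were highest and 26.7% lowest there. Of the 16 genes of tubulins and the growth cone, 11 were highest in replicate 3 and 5 in replicate 1, and 12 were lowest in replicate 2, where 22.9% of all genes were lowest. Of the 14 newborn neuron genes, 9 were highest in replicate 3, while 8 were lowest in replicate 1. Of 11 maturing neuron genes, 7 were highest in replicate 3 and 3 in replicate 1. Stmn2, a microtubule regulator of growth cones, had 77.3, 50.9, 72.3 and 54.4 RPKM in replicates 1 to 4, highest in replicate 1. Syn1, a synaptic vesicle phosphoprotein, had 16.6, 11.5, 17.005 and 11.4, highest in replicate 3. Replicate 3 was lowest for 9 of 13 mitosis genes and 12 of 14 replication genes, and replicates 2 and 4 were between them highest for 12 and 14 of these. All members of the tubulin, newborn neuron, mitosis and replication lists were called, which is to be read beside the 56.6% of all genes called at 10 to 100 RPM and 84.6% at 100 RPM or more. Kif11, the spindle motor, had 27.8, 36.1, 29.8 and 37.1 RPKM, lowest in replicate 1. Top2a had 53.7, 62.6, 53.6 and 64.96, with replicates 1 and 3 nearly equal. The ratio of the newborn neuron sum to the mitosis sum was 3.93, 3.29, 4.37 and 3.47 in replicates 1 to 4. GC content also moved between libraries: the fifth of genes richest in GC had median deviations of 0.01, -0.02, 0.04 and -0.03 on the log2 scale in replicates 1 to 4, and its part in the neuronal and mitotic values was not tested. Deep-layer genes and hypoxia genes varied less than these lists, with median coefficients of variation of 6.59% for the deep layers and 5.65% for the hypoxia list. Progenitor sums were even, but 19 of 20 radial glia and 11 of 11 intermediate progenitor genes were called. This too is to be read beside the 56.6% called at 10 to 100 RPM and 84.6% at 100 RPM or more, and 45.0% of all tested genes. The median coefficients of variation of these 2 lists were 6.82% and 5.53%. Over all tested genes the median was 5.39%, at 10 to 100 RPM 4.69% and at 100 RPM or more 4.39%.

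Between sexes, 10 of 20134 tested genes (0.0497%) passed the test, 5 higher in male (0.0248%) and 5 lower (0.0248%) (edgeR quasi-likelihood F test, Benjamini-Hochberg adjusted p under 0.05). The 5 that were higher in male libraries were 4 Y-linked genes and Hjurp, the chaperone that loads centromeric histone, on chromosome 1, 88262471 to 88277633. The Y-linked genes were the histone demethylase genes Kdm5d and Uty, the RNA helicase gene Ddx3y and the initiation factor gene Eif2s3y. Ddx3y had 54.9 and 60.8 RPM in male libraries, against 0.123 and 0.147 RPM in female libraries. Hjurp had 221 and 240.1 RPM in male libraries, against 125 and 116 RPM in female libraries (log2 fold change 0.93, SE 0.0809, adjusted p = 0.0348), close within each sex.

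The 5 genes lower in male libraries were Xist and 4 autosomal genes. Rec8, a cohesin subunit used in meiosis (chromosome 14, 55618037 to 55625395), had 7.31 and 7.13 RPM in male libraries, against 47.3 and 43.1 RPM in female libraries (log2 fold change -2.66, SE 0.0972, adjusted p = 2.07e-04). Of the 25 genes with a mean of at least 0.5 RPM within 200 kb, itself included, it was the only one called between sexes, and the others had log2 fold changes from -0.17 to 0.27. Slc1a5, a glutamine transporter (chromosome 7, 16781340 to 16798274), had 11.98 and 12.7 RPM in male libraries, against 31.5 and 27.4 RPM in female libraries (log2 fold change -1.27, SE 0.110, adjusted p = 0.0348). Near it, the non-coding RNA 9330104G04Rik had 0.690 and 0.787 RPM in male libraries, against 3.66 and 4.34 RPM in female libraries (log2 fold change -2.44, SE 0.217, adjusted p = 0.0350), and the neighbouring gene Pnmal2, chosen after its values were seen, had 124 and 108 RPM in male libraries, against 50.7 and 65.7 RPM in female libraries, which did not pass (adjusted p = 0.172). The last was Gm5948, a processed pseudogene on chromosome 10, with 12.4 and 12.5 RPM in male libraries, against 27.5 and 29.4 RPM in female libraries (log2 fold change -1.20, SE 0.0965, adjusted p = 0.0266). Without replicate 2, and likewise without replicate 3, the count was 6, and the autosomal genes other than Rec8 no longer passed. Without replicates 1 and 4 in turn it was 44 and 55. Each of these fits leaves 1 library in a sex, and without replicate 4 the only male library is also the only one of the earlier plug date, so that sex and plug date cannot be told apart in the 55.

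**Figure D5:**
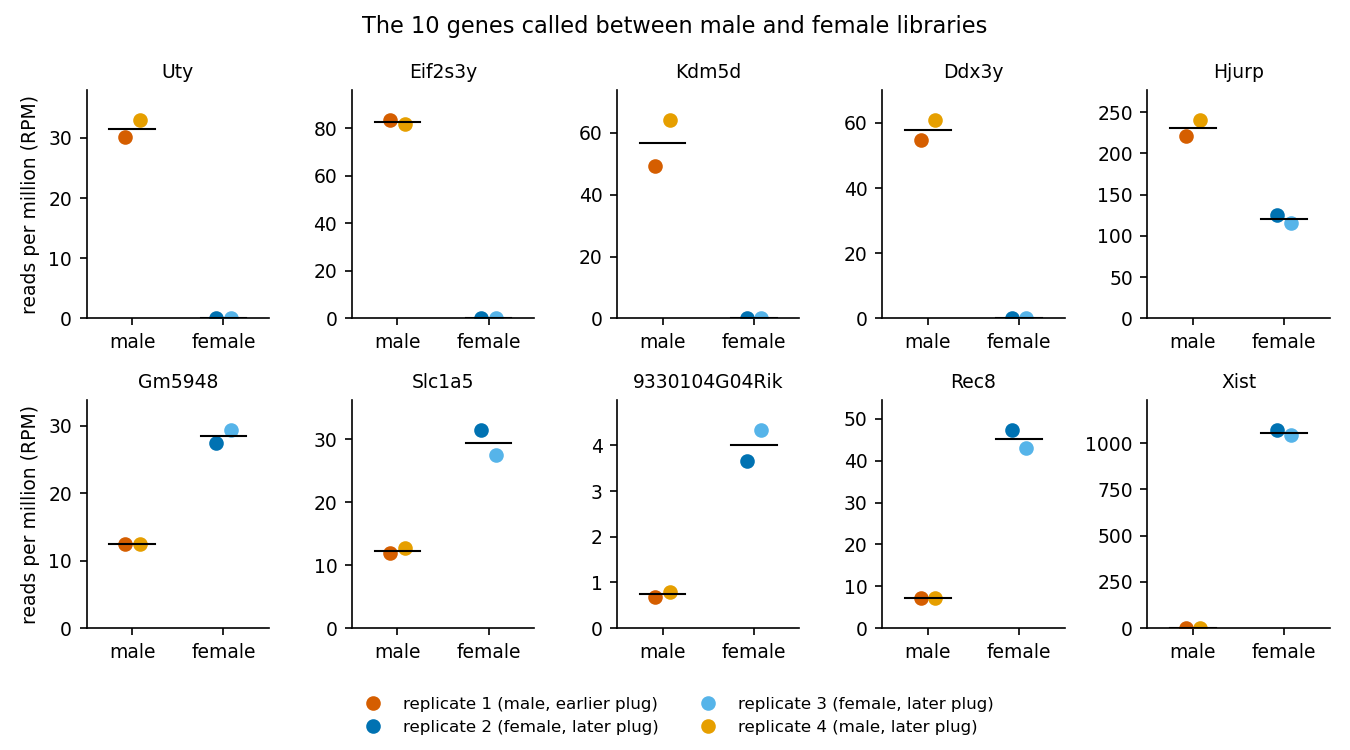
RPM in each library of the 10 genes called between sexes, male on the left and female on the right of each panel, with a line at the mean of the 2 libraries. Each axis starts at 0. Upper row: the 5 genes higher in male libraries. Lower row: the 5 lower in male libraries, where Rec8 averaged 7.22 RPM in male and 45.2 RPM in female libraries.

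X-linked genes with a Y-linked relative, which can escape X inactivation, were not called. Eif2s3x had 217 and 223 RPM in male libraries, against 330.2 and 314 RPM in female libraries (log2 fold change -0.56, SE 0.0694, edgeR adjusted p = 0.124) and Kdm6a had 52.05 and 53.6 RPM in male libraries, against 77.98 and 71.6 RPM in female libraries (log2 fold change -0.51, SE 0.0758, edgeR adjusted p = 0.218). The male and female libraries did not overlap in either gene, but with 2 libraries a side this often happens by chance. How many of all genes did not overlap was not counted. Over 692 X-linked genes with a mean of at least 1 RPM the median log2 fold change was 0.00092, against -0.0056 over 15883 autosomal genes. Values below 0 were found for 340 of these 692 X-linked genes and for 8407 of the 15883 autosomal genes.

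For the library of the earlier plug date against the 3 of the later one, 0 of 20884 tested genes passed the edgeR quasi-likelihood F test (0%), with 1685 at an unadjusted p under 0.05, 88 called by DESeq2 and 0 by limma-voom. With 1 library on one side, that library is assumed to vary like the other 3, and plug date cannot be told apart from anything else that sets replicate 1 apart. The count rested on the libraries of the later date, being 179 without replicate 3 and 55 without replicate 4, and 0 without replicate 2. Without replicate 4 the later libraries are both female, so these 55 are the same comparison as that between sexes and hold the genes that follow sex. Dlx2 and the other ventral genes that were highest in replicate 1 are therefore differences between libraries beyond counting noise, and not called differences between plug dates.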

How the data were processed

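RNA was sequenced from 4 E14.5 libraries made with the TruSeq RNA v2 kit, which does not mark strand, per the labels' protocols. Per the submitters' processing notes, GRCm38 was used with TopHat2 2.1.0, featureCounts 1.5.0 and bcl2fastq 1.8.4; the annotation release, and the treatment of reads with several matches, is not given in the sources used here. For each gene the authors deposited read counts, RPM and RPKM. Dividing counts by their library total gave the deposited RPM, and the length implied by the deposited RPKM was within 1 base of the GENCODE M21 exon length in 94.9% of genes. Gene types and positions came from M21, which holds 53706 of the 53801 identifiers; 66 symbols are blank. No other per-sample columns were used; the 9 value columns of the adult libraries were left out.

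Counts as deposited were analysed with edgeR 4.0.16 in R 4.3.3, with TMM scaling and filterByExpr at a minimum count of 10. Variation between libraries was tested with the dispersion set to 0 and library as a factor; sex and plug date with the quasi-likelihood F test, each alone. P-values were adjusted by Benjamini-Hochberg at 0.05. Pseudogenes with a mean of at least 100 counts were matched to coding transcripts with BLAST 2.17.0. Shares, ranks and list sums have no test. On simulated counts with 200 changed genes, the variation test over 20737 genes found 64 of 67 with a 1.5-fold, 66 of 67 with a 2-fold and 66 of 66 with a 4-fold change, with 14 false calls; the sex test over 20135 genes found 28, 54 and 65 of those numbers, with 14; the plug date test over 20831 genes found 21, 51 and 65, with 15.

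Genes were named by rule: Nbn, the 20 highest by mean RPKM with at least 100 counts, up to 5 highest members and the lowest of each list, the 20 most variable genes of at least 10 RPM, the 5 steadiest of at least 100 RPM, and genes called between sexes or plug dates. Some items that the rule names are not reported here. Outside the rule, Tuba1b, Aqp4 and Kif11 and those marked in the text were chosen after their values were seen. The groups, the 39 lists (448 genes, 445 in the tables) and the tests were chosen with earlier results of these data known. Alternatives were RLE or total-count scaling, no or a stricter filter, coding genes only, GC and length offsets, DESeq2 1.42.0, limma-voom (limma 3.58.1), a covariate, and each library left out. The limit for a count of 0 covers counting error only, and the depth of 32533065 to 43197226 counts limits genes under about 1 RPM most.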

Additional observations from a re-analysis of the deposited data

Results flagged for a closer look

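Of 94 values tested for a library far from the other 3, 4 stood out, each in replicate 1 and each the highest of its 4. In each case the gap to the nearest other library, over the whole range, exceeded Dixon's 95% critical value. Chance flags about 1 in 20 such groups, so about as many would arise by chance. Pericyte genes summed to 76.3 RPKM in replicate 1, against 55.3, 55.3 and 54.3 in replicates 2 to 4. Rostral cortex genes, targets and effectors of fibroblast growth factor signalling such as Etv5 (12.4, 8.70, 9.82 and 10.1 RPKM in replicates 1 to 4), summed to 52.5 RPKM, against 40.5, 41.4 and 40.4. Oligodendrocyte precursor genes summed to 4.86 RPKM, against 3.09, 3.34 and 3.06, from low counts. Gm28661, the copy of mt-Co2, had 1640.2 RPM, against 1562, 1570 and 1573.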

How the results depend on the processing

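The number of genes varying between libraries stayed within 8571 to 9482 under scaling, filter, coding-only and GC alternatives, and was 6788 to 8559 with 1 library left out. Each of the 196 values of named variable genes kept its call, but 5 genes (Gm4383, Gm46432, Dlx2, Dlx6os1 and Aldh1l1) fell in size by over 1.5 times without 1 library. For the sexes, 10 calls became 27 with no filter, 52 with DESeq2, 34 with plug date as a covariate, 6 to 55 with 1 library left out, and 2 among genes above the minimum count in all 4 libraries, a filter chosen after seeing the data that removes the Y-linked genes. RLE and total-count scaling gave 10, limma-voom and GC and length offsets 9. Of the 116 values of called genes under alternatives, 102 kept the call and 14 lost it (in Gm5948, Slc1a5, Hjurp and 9330104G04Rik), with no change of direction. For the plug dates, 0 calls became 6 with library totals only, 42 with no filter, 88 with DESeq2, 30 with sex as a covariate, and 0 to 179 with 1 library left out. The nuclear coding share of 91.6% was 68.6% by summed RPKM and 93.7% without mitochondrial genes. Of the 20 most abundant genes by RPKM, 11 were among the top 20 by RPM, 17 remained among those with exons of at least 300 bases, and 20 with any library left out. Where these counts moved, the cause was not tested. No paired analysis was possible because the male and female libraries share no replicate number and neither do the plug dates. Depth limits genes under 1 RPM, where the median counting error was 25.7%, and 2 libraries a side limit the sex test.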

Other observations

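For the mitochondrial pseudogenes named here, the ratio to the parent was nearly constant over libraries. By counts it differed within a block of chromosome 1, from 0.209 in replicate 4 for Gm29216 to 1.11 in replicate 1 for Gm10925. Gm28439 had 0.446, 0.436, 0.441 and 0.459 times the counts of mt-Nd4 in replicates 1 to 4. Count ratios are not scaled to length, and by mean RPKM the gap was smaller. Gm29216 was at 2501 and mt-Co1 at 3723 RPKM, and Gm10925 at 2560 and mt-Atp6 at 2310. Gm28439 was at 887 and mt-Nd4 at 1266 RPKM. Cpne6, a calcium-dependent lipid-binding protein gene within 200 kb of Rec8, had 6.92, 1.66, 6.13 and 1.57 RPM in replicates 1 to 4, high in replicates 1 and 3 and low in replicates 2 and 4, the reverse of Myo7a, and was chosen after its values were seen.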
